A study of Mus musculus with 6 samples.

Results

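Heat-shock proteins and their J-domain co-chaperones were measured in fibroblasts from C57BL/6J mouse embryos, cells of connective tissue kept in culture, with a labelled age of 12 days. The members were all genes whose symbol in the deposited table starts with Hspa, Hspb, Hspd, Hspe, Hsph, Dnaja, Dnajb or Dnajc and a digit, or with Hsp90, which gave 72 of 21853 genes. Both groups carried a knockout of xCT. Water was the treatment in 3 libraries (control), and red clover extract in the other 3 (RCE). Dose and exposure time, and whether the knockout line was 1 clone, are not given in the sources used here. Because no label says that replicates came from separate cultures, the spread behind each p-value is that of these 6 libraries and may be technical. The comparison asked what the extract changes in cells that lack xCT, in a study of ferroptosis and iron.

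Values were FPKM, which count fragments relative to transcript length and library depth. Steps between the low values gave depths of 45700000 to 59000000 fragments per library. Slc7a11, which encodes xCT, was at 0.013, 0.027 and 0.037 FPKM in control (replicates 1 to 3) against 0.009, 0.017 and 0.007 FPKM with RCE (same order). All 10 fibroblast markers on a list reached a mean of 1 FPKM. Their summed level was 6073 to 6477 FPKM in control and 5521 to 5896 FPKM with RCE. Of these markers 2 were called lower and 0 higher (7 and 0 in the paired fit described below). Over all genes tested 6.77% were called lower and 17.6% higher (15.9% and 46.6% paired). Other cell types' lists were low: 3 of 7 macrophage markers reached 1 FPKM (sums of 17.8 to 18.7 FPKM in control and 13.7 to 15.6 FPKM with RCE), 2 of 5 endothelial markers (3.18 to 3.53 and 2.76 to 3.03), 2 of 6 epithelial markers (6.97 to 7.58 and 4.81 to 5.95), 1 of 5 neural markers (10.1 to 11.04 and 11.8 to 12.7) and 0 of 4 pluripotency markers (0.081 to 0.594 and 0.038 to 0.612). Ptprc, Pecam1, Cdh5, Epcam and Cdh1 were all under 0.1 FPKM on average in each group, but other genes of these lists were not. Lyz2 averaged 11.55 FPKM in control and 8.31 FPKM with RCE, Krt19 4.48 and 3.16, and Emcn 1.76 and 1.43, all called lower. Tubb3 averaged 10.3 and 12.1 FPKM and was called higher. The skeletal muscle list was the exception, with sums of 117 to 136 FPKM in control and 126 to 146 FPKM with RCE, and is described with Hspb7 below. The part of these markers in the results below was not tested.

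Chaperones of the HSP70 family bind unfolded stretches of proteins and release them in a cycle driven by ATP. J-domain proteins (Dnaja, Dnajb and Dnajc) bring them clients and trigger ATP hydrolysis, and HSP110 proteins exchange the nucleotide. HSP90 takes over partly folded clients such as kinases and steroid receptors, small HSPs hold unfolding proteins without using ATP, and Hspd1 with Hspe1 forms the folding chamber of mitochondria. Under heat or other protein-damaging stress the transcription factor HSF1 binds heat shock elements, inverted repeats of the bases GAA, and induces part of these genes, whereas others are made at all times. Stress in the endoplasmic reticulum (ER) induces another part through the unfolded protein response.

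The promoters of Hspa1a and Hspa1b, the copies of the stress-inducible HSP70 gene, are shown because these genes had the most negative changes of all members. The 250 bases before each start differ at 3 positions, and capitals mark GAANNTTC, 1 of the 2 spellings of a 2-unit heat shock element (GAANNTTC or TTCNNGAA, each its own reverse complement). Hspb1 is shown as another called member with such letters. The stretch between the RefSeq starts of Hspe1 and Hspd1 is shown because neither gene passed the test. The genes share it in opposite directions, and it is printed on the strand of Hspe1. Capitals there mark the 3-unit form (GAANNTTCNNGAA or TTCNNGAANNTTC, overlapping matches merged). Hspa5 stands for the ER members, with the ER stress element (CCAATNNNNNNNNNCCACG, searched on both strands) in capitals. Sequences are from RefSeq on GRCm38.p6, the mm10 assembly, 5′ to 3′ on the strand of the gene.
Hspa1a, chr17:34972157-34972406, minus strand: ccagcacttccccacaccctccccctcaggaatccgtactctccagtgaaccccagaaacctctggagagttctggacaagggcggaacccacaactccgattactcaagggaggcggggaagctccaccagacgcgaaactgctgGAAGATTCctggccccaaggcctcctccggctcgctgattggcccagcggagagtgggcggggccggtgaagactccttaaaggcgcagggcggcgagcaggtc
Hspa1b, chr17:34959239-34959488, minus strand: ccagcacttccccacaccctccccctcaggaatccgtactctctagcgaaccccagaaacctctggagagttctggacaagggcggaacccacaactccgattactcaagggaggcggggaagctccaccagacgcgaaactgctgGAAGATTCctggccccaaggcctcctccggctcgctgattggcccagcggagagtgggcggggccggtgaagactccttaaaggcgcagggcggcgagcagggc
Hspb1, chr5:135887782-135887849, plus strand: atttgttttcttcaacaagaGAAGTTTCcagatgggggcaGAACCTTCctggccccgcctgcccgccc
Hspe1 and Hspd1, chr1:55088039-55088096, plus strand: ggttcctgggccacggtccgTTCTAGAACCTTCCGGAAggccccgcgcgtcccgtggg
Hspa5, chr2:34772005-34772063, plus strand: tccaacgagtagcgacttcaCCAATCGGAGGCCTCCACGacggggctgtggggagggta

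With RCE the inducible HSP70 genes Hspa1a and Hspa1b dropped several-fold, while the abundant constitutive chaperones moved by little. Of the 72 members, 60 averaged 1 FPKM or more and were tested. On the log2(FPKM + 1) scale, 6 were lower (Hspa1a, Hspa1b, Dnajb1, Hspb7, Hspb1 and Hspa4l) and 5 higher (Dnajc9, Hspa12a, Dnajc28, Dnaja4 and Dnajc2) in limma with Benjamini-Hochberg adjustment over 10870 genes. Over all genes tested 6.77% were called lower and 17.6% higher. With median-of-ratios scaling, which moved the median change of all genes from 0.08 to 0.00, 6 members were lower and 3 higher, against 9.95% and 8.4% of all genes. A paired fit, with replicate number as a block, called 12 members lower and 24 higher, against 15.9% and 46.6% of all genes. Its adjusted p is given below as "paired" where it changes a call, and its counts likewise. Only replicate 1 stands apart in both groups: a block that sets number 1 against 2 and 3, added after seeing the data, called the same 24 and 12 members and Dnajc14 as higher, against 47.7% higher and 16.4% lower of all genes. With GC correction added to the pairing the balance turned, with 7 members higher and 22 lower, against 25.3% and 27.2% of all genes. All 12 paired lower calls were kept there, but of the 24 paired higher calls just those of Dnajc7, Dnajc9, Dnajc28, Hspa4, Hspa12a, Hspb6 and Hspb11. The other 10 lower calls in that fit were Dnaja1, Dnaja2, Dnajb2, Dnajc5, Dnajc13, Dnajc21, Hspa8, Hspa9, Hspa13 and Hsph1, with changes from -0.16 to -0.08. At unadjusted p under 0.05 without pairing, 11 members were higher and 7 lower, beside 28.5% and 9.48% of all genes. In all 3 same-numbered pairs 32 members were higher and 17 lower, beside 56.5% and 20.6% of all genes. The median change of the 60 members was 0.05, beside 0.08 over all genes tested. All 3 RCE values lay below all 3 control values for 7 members and above them for 13, beside 10.9% and 31.2% of all genes.

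**Figure D1:**
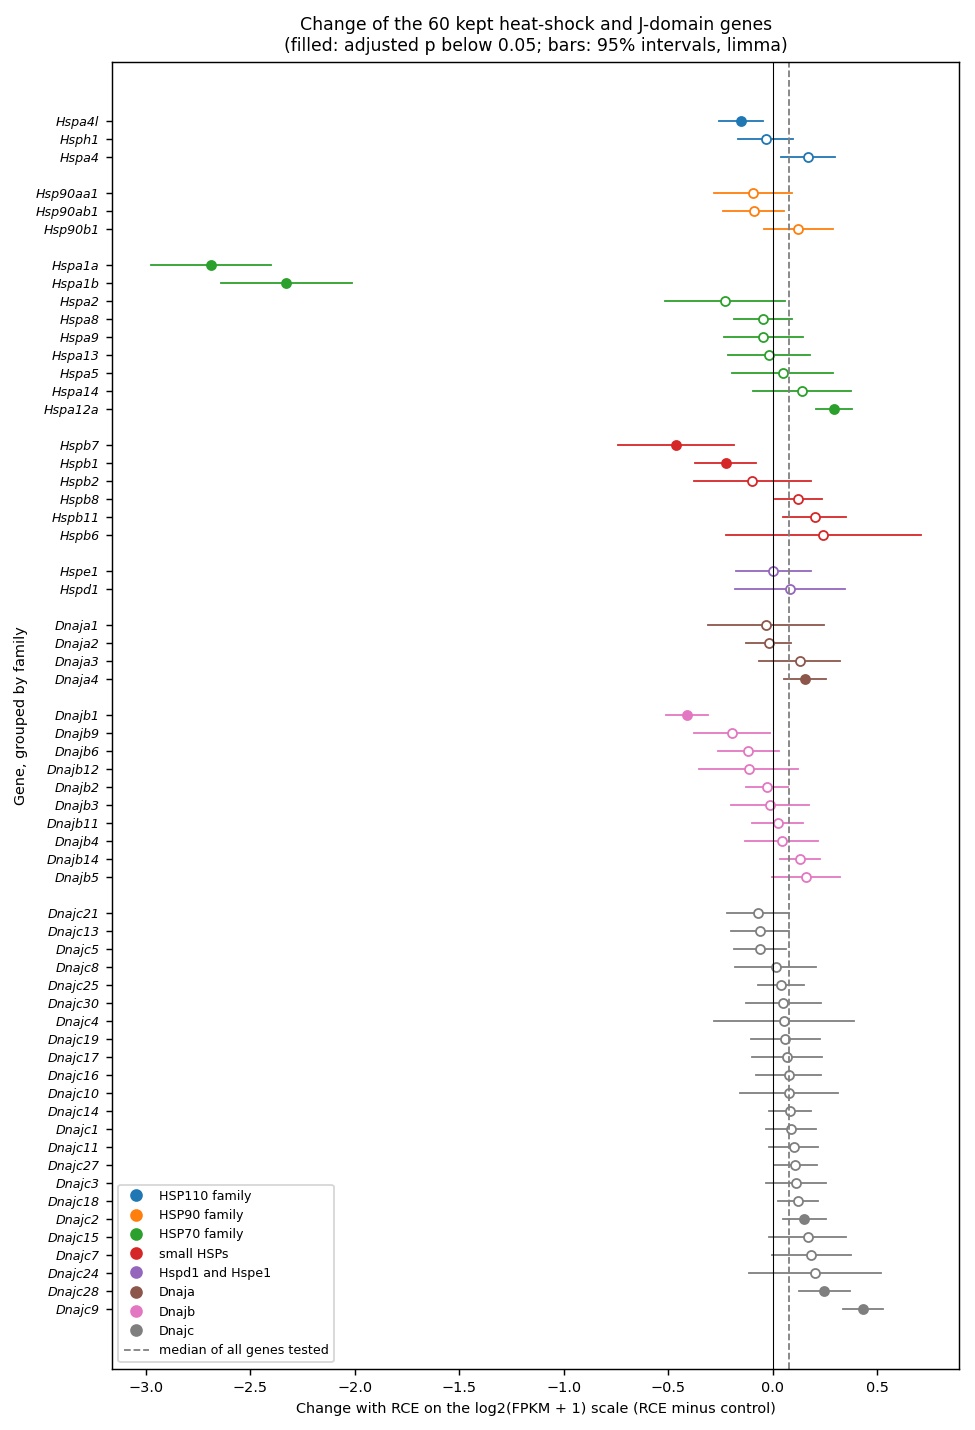
Change of each of the 60 tested members on the log2(FPKM + 1) scale (horizontal axis, RCE minus control), grouped by family (vertical axis); points are limma estimates, bars 95% intervals, filled points have an adjusted p below 0.05 and the dashed line is the median of all genes tested (0.08). Hspa1a (-2.69) and Hspa1b (-2.33) stand far to the left of every other member, which lie between -0.46 and 0.43.

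Hspa1a (ENSMUSG00000091971, chromosome 17, 34969190 to 34972156 on mm10, minus strand) encodes the HSP70 that is made in bulk under stress. It stood at 20.8, 18.1 and 15.9 FPKM in control (replicates 1 to 3) against 2.35, 1.97 and 1.65 FPKM with RCE (same order). Every control value was more than 6 times every RCE value, and in both groups replicate 1 was the highest. The gene fell from 18.3 ± 2.47 to 1.99 ± 0.35 FPKM (SD, n = 3), a change of -2.69 on the log2(FPKM + 1) scale (SE 0.12, limma adjusted p = 8.92e-05). Within the same-numbered pairs of libraries control was 8.88, 9.18 and 9.66 times RCE. At the recovered depths these levels correspond to 3350, 2657 and 2329 fragments in control and 318, 345 and 274 with RCE. This was rank 3 among the most negative changes of 10870 genes. In bulk RNA, fewer cells that express a gene and less RNA per cell cannot be told apart.

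Hspa1b (ENSMUSG00000090877, chromosome 17, 34956436 to 34959238, minus strand) is the neighbouring copy of the same gene. It stood at 27.3, 23.3 and 19.3 FPKM in control (replicates 1 to 3) against 4.32, 3.75 and 3.38 FPKM with RCE (same order). The groups again stood apart, with the libraries in the same order as for Hspa1a. The gene fell by 2.33 on the log2(FPKM + 1) scale (SE 0.13, limma adjusted p = 0.000211), rank 4 of 10870, and control was 6.32, 6.21 and 5.72 times RCE in the 3 pairs. Both transcripts are largely alike: 58.8% of the 50-base windows of Hspa1a occur in Hspa1b and 62.3% of those of Hspa1b in Hspa1a, so the split of fragments between them is uncertain. Summed into 1 row, a choice made after seeing the data, they went from 48.1, 41.4 and 35.2 to 6.66, 5.73 and 5.03 FPKM. The change was -2.64 on the log2(FPKM + 1) scale (limma adjusted p = 0.00013). The level of Hspa1a was 76.4, 77.5 and 82.2% of that of Hspa1b in control and 54.3, 52.5 and 48.7% with RCE, a difference that the uncertain split could touch and that was not tested. Exons of Gm20481 overlap Hspa1a on the opposite strand, and that gene stood at 0.09 to 0.752 FPKM. Both promoters printed above carry GAAGATTC at -104 to -97 from the start.

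**Figure D2:**
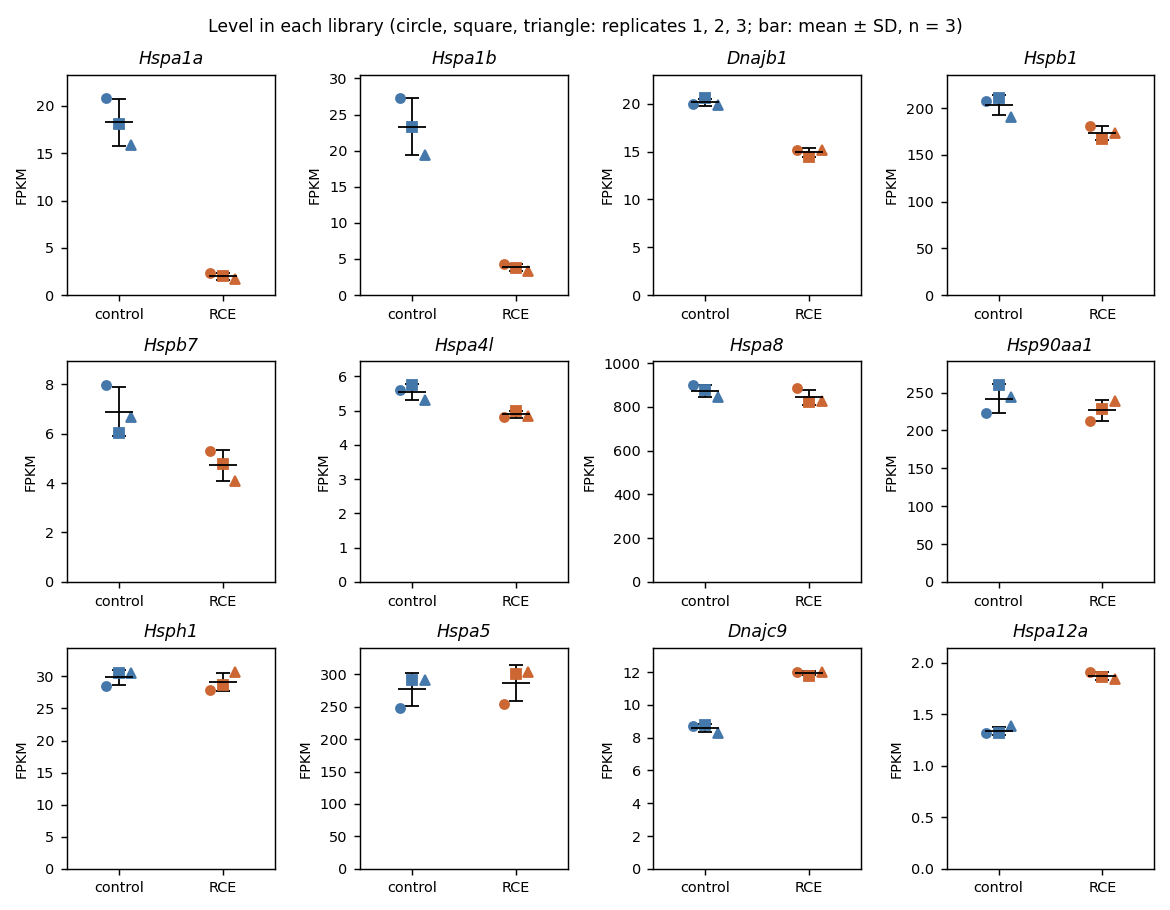
Level of 12 members in each library in FPKM (vertical axes, from 0) in control and RCE (horizontal axes); circles, squares and triangles are replicates 1, 2 and 3, and bars are the mean ± SD of 3 libraries. Hspa1a drops from 15.9 to 20.8 FPKM in control to 1.65 to 2.35 FPKM with RCE, and Dnajb1 from 19.9 to 20.6 to 14.4 to 15.2 FPKM, whereas Hspa8, Hsp90aa1, Hsph1 and Hspa5 overlap between groups.

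The other HSP70 genes made up nearly all of the family's RNA. Hspa8, the constitutive HSC70 of the cytosol and the most abundant member of all, was at 900, 875 and 843 FPKM in control (replicates 1 to 3) against 884, 823 and 827 FPKM with RCE. The groups overlap, and the change of -0.05 did not pass the test (limma adjusted p = 0.6, 95% interval -0.19 to 0.09). Hspa1a and Hspa1b together held 3.06, 2.54 and 2.21% of the FPKM summed over the 11 HSP70 genes in control and 0.441, 0.373 and 0.325% with RCE. Hspa9, the mitochondrial HSP70, stood at 328, 370 and 374 FPKM in control and 319, 357 and 361 FPKM with RCE (-0.05, adjusted p = 0.717). Hspa14, which works at the ribosome, was at +0.14 (adjusted p = 0.343, and 0.00296 with the replicate block), and exons of Gm45902 overlap it on the same strand. Hspa2, a form best known from the testis, was at -0.23 (adjusted p = 0.211; paired 0.000338).

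Hspa12a (ENSMUSG00000025092, chromosome 19, 58795750 to 58943654), a distant relative of HSP70, was the 1 gene of the family called higher. Its level was low, with 1.32, 1.32 and 1.39 FPKM in control and 1.91, 1.86 and 1.84 FPKM with RCE. The replicates lay close together and the groups did not overlap. The gene rose by 0.29 on the log2(FPKM + 1) scale (SE 0.04, limma adjusted p = 0.00332), which was 1.4-fold by the group means. Exons of Eno4 overlap it on the opposite strand. Of the 9 tested HSP70 genes 2 were lower and 1 higher (3 and 2 paired), beside 6.77% and 17.6% of all genes (15.9% and 46.6% paired).

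In the HSP110 family 1 of the 3 genes was lower and 0 were higher (1 and 1 paired), beside 6.77% and 17.6% of all genes (15.9% and 46.6% paired). Hspa4, the constitutive HSP110 and most abundant of the 3, was at 90.5, 96.8 and 95.6 FPKM in control (replicates 1 to 3) against 101, 107 and 110 FPKM with RCE. All RCE values lay above all control values, but the change of 0.17 did not pass the test without the block (limma adjusted p = 0.0643; paired 0.000787). Hspa4l, an inducible relative, was at 5.59, 5.75 and 5.31 FPKM in control and at 4.82, 5.002 and 4.86 FPKM with RCE. It was called lower at -0.15 (SE 0.04, limma adjusted p = 0.0463). That call was lost without any one of the libraries, with adjusted p = 0.0957, 0.148 and 0.0692 without control replicates 1, 2 and 3 and 0.0861, 0.119 and 0.14 without RCE replicates 1, 2 and 3. It was also lost without the low-value filter and with a minimum mean of 5 FPKM. Hsph1, the HSP110 that HSF1 induces, was at 28.5, 30.6 and 30.5 FPKM in control and at 28.0, 28.7 and 30.7 FPKM with RCE (-0.03, adjusted p = 0.688, 95% interval -0.17 to 0.10).

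None of the HSP90 genes passed limma without the block (0 higher and 0 lower of 3, and 0 at unadjusted p under 0.05). In the paired fit 1 was higher and 2 lower, beside 46.6% and 15.9% of all genes. Hsp90ab1, the constitutive cytosolic form, was at 812, 781 and 778 FPKM in control and at 790, 718 and 720 FPKM with RCE. Replicate 1 was highest in both groups, and the groups overlap (-0.09, adjusted p = 0.325; paired 0.0417). Hsp90aa1, the stress-inducible cytosolic form, was at 222, 260 and 244 FPKM in control and at 212, 228 and 239 FPKM with RCE (-0.09, adjusted p = 0.42; paired 0.0461). Hsp90b1, or GRP94, the form of the ER, was at 329, 362 and 364 FPKM in control and at 359, 400 and 389 FPKM with RCE (+0.12, adjusted p = 0.243; paired 0.00562). The paired calls of both cytosolic forms were kept with GC correction, and that of Hsp90b1 was not (change 0.03; 0.04 with median-of-ratios scaling).

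Of the 8 small HSP genes by symbol, 6 were tested. Of these 2 were lower and 0 higher (2 and 3 paired), beside 6.77% and 17.6% of all genes (15.9% and 46.6% paired). Hspb1, which encodes HSP25, had 207, 211 and 191 FPKM in control (replicates 1 to 3) against 181, 166 and 173 FPKM with RCE. All RCE values were below all control values, and the gene fell by 0.23 on the log2(FPKM + 1) scale (SE 0.06, limma adjusted p = 0.0394). The call was lost without control replicates 1, 2 or 3 (adjusted p = 0.0867, 0.135 and 0.0525), without RCE replicates 2 or 3 (0.151 and 0.117), with quantile normalization and without the low-value filter. Its promoter holds GAANNTTC letters at 2 places, in capitals above. Hspb8, a partner of the co-chaperone Bag3, was at 122, 129 and 124 FPKM in control and at 133, 136 and 140 FPKM with RCE (+0.12, adjusted p = 0.105; paired 0.0049).

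Hspb7, a small HSP best known from heart and skeletal muscle, was at 7.97, 6.01 and 6.67 FPKM in control (replicates 1 to 3) against 5.31, 4.76 and 4.07 FPKM with RCE. The groups did not overlap, and the gene fell by 0.46 on the log2(FPKM + 1) scale (SE 0.11, limma adjusted p = 0.0316). The call was lost without control replicate 1 (adjusted p = 0.0536), control replicate 3 (0.0891), RCE replicate 2 (0.0978) or RCE replicate 3 (0.0923). Of 8 skeletal muscle markers 2 reached a mean of 1 FPKM, Des and Acta1, and Myod1 and Pax7 were listed at 0 in every library. The markers summed to 117 to 136 FPKM in control and 126 to 146 FPKM with RCE, and the groups overlap. Des was called higher, a call lost with median-of-ratios scaling and without control replicates 2 or 3 or RCE replicate 3. The part of these markers in the level of Hspb7 was not tested. Hspb6, another small HSP of muscle, was at 21.5, 15.8 and 15.5 FPKM in control and at 27.2, 19.2 and 17.1 FPKM with RCE, with replicate 1 well above the others in both groups (+0.24, adjusted p = 0.41; paired 0.000976). Hspb11, now classed with intraflagellar transport rather than with small HSPs, was at +0.20 (adjusted p = 0.0656; paired 0.000349). Hspb2 was at 0.955 to 1.453 FPKM, with overlapping groups, and shares exon bases with Cryab on the opposite strand.

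The mitochondrial chaperonin Hspd1 was at 199, 240 and 230 FPKM in control and at 205, 248 and 256 FPKM with RCE (+0.08, adjusted p = 0.632; paired 0.0477). Its lid, Hspe1, was at 237, 263 and 251 FPKM in control and at 234, 246 and 272 FPKM with RCE (0.00, adjusted p = 0.991, 95% interval -0.18 to 0.18). Replicate 1 was the lowest of its group for both genes, and the groups overlapped. Neither passed limma without the block (0 of 2, 0 at unadjusted p under 0.05, 1 higher and 0 lower paired, beside 46.6% and 15.9% of all genes). The stretch between their RefSeq starts printed above holds overlapping 3-unit heat shock elements. As annotated, exons of both genes overlap by 112 bases on opposite strands.

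Of the 4 Dnaja genes, which most resemble the bacterial DnaJ, 1 was higher and 0 were lower (2 and 0 paired). Over all genes 17.6% were higher and 6.77% lower (46.6% and 15.9% paired). Dnaja2 was the most abundant, at 79.6, 77.0 and 77.8 FPKM in control and at 79.5, 76.7 and 75.1 FPKM with RCE (-0.02, adjusted p = 0.795). Dnaja1, which heat induces, was at 19.6, 24.4 and 23.5 FPKM in control and 18.9, 23.5 and 23.6 FPKM with RCE (-0.03, adjusted p = 0.867). Dnaja4 was at 9.35, 9.68 and 9.23 FPKM in control and at 10.3, 10.6 and 10.8 FPKM with RCE, and was called higher at 0.15 (SE 0.04, limma adjusted p = 0.0392). The groups did not overlap, but the call was lost with median-of-ratios scaling (0.08, adjusted p = 0.235), quantile normalization and GC correction, also with the block. It was lost as well without control replicates 1, 2 or 3 (adjusted p = 0.0818, 0.0825 and 0.134) and without RCE replicates 2 or 3 (0.143 and 0.137). Exons of Wdr61 overlap Dnaja4 on the opposite strand. Dnaja3, the mitochondrial form, was at 23.5, 27.2 and 27.4 FPKM in control and 26.2, 29.2 and 30.2 FPKM with RCE (+0.13, adjusted p = 0.294; paired 0.00298).

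Dnajb1 (ENSMUSG00000005483, chromosome 8, 83608193 to 83612653), the heat-inducible HSP40 that works with the HSP70 of the cytosol, was the 1 Dnajb gene of 10 tested that was lower. It had 19.985, 20.59 and 19.9 FPKM in control (replicates 1 to 3) against 15.2, 14.4 and 15.2 FPKM with RCE. The spread within each group was small beside the gap between them. The gene fell by 0.41 on the log2(FPKM + 1) scale (SE 0.04, limma adjusted p = 0.00181), rank 328 among the most negative of 10870, and control was 1.32, 1.43 and 1.31 times RCE in the 3 pairs. Dnajb4, another inducible HSP40 and the most abundant Dnajb gene, was at 49.997, 55.5 and 53.4 FPKM in control and at 49.8, 56.3 and 58.0 FPKM with RCE (+0.04, adjusted p = 0.709). Dnajb6, which keeps aggregation-prone proteins soluble, was at 21.3, 19.995 and 20.5 FPKM in control and 20.4, 18.7 and 17.8 FPKM with RCE (-0.12, adjusted p = 0.21; paired 0.0142). Dnajb12 and Dnajb14, membrane proteins of the ER, were at -0.12 (adjusted p = 0.44; paired 0.0196) and +0.13 (adjusted p = 0.0551; paired 0.00602). Dnajb2, Dnajb3 and Dnajb5 were at -0.03, -0.01 and +0.16, with adjusted p of at least 0.138, and Dnajb5 passed in the paired fit (0.0077). Of the 10 tested Dnajb genes 1 was lower and 0 higher (4 and 2 paired), beside 6.77% and 17.6% of all genes (15.9% and 46.6% paired).

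Dnajc genes have a J-domain but otherwise unlike structures and jobs. Of 28 members 23 were tested, 3 were higher and 0 lower (5 and 0 at unadjusted p under 0.05, 12 and 0 paired). Over all genes 17.6% were higher and 6.77% lower (28.5% and 9.48% at unadjusted p, 46.6% and 15.9% paired). Their changes ran from -0.07 to 0.43 with a median of 0.08, the same as over all genes tested. Dnajc9 (ENSMUSG00000021811, chromosome 14, 20384638 to 20388910), a chaperone of histones H3 and H4 as well as a J-domain protein, had the largest positive change of all tested members on the log2(FPKM + 1) scale. It was at 8.70, 8.76 and 8.30 FPKM in control (replicates 1 to 3) against 12.0, 11.8 and 12.0 FPKM with RCE. The groups were far apart beside their spread, and the gene rose by 0.43 on the log2(FPKM + 1) scale (SE 0.04, limma adjusted p = 0.00127), rank 176 among the largest positive changes of 10870. By the group means it rose 1.39-fold, beside 1.396-fold for Hspa12a and 1.37-fold for Dnajc28. The added 1 shrinks the log2 changes of such low genes.

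Dnajc28 was at 1.08, 0.986 and 0.971 FPKM in control and at 1.31, 1.33 and 1.53 FPKM with RCE. It rose by 0.25 on the log2(FPKM + 1) scale (SE 0.05, limma adjusted p = 0.0176). The call was lost without control replicates 2 or 3 (adjusted p = 0.0687 and 0.0694), without RCE replicates 2 or 3 (0.056 and 0.0526), with quantile normalization and with GC correction. Dnajc2, which sits at the ribosome exit, was at 20.6, 21.4 and 22.1 FPKM in control and at 24.3, 23.8 and 23.4 FPKM with RCE (+0.15, SE 0.04, limma adjusted p = 0.049). That call was lost with median-of-ratios scaling (0.07, adjusted p = 0.358), with quantile normalization, with GC correction with and without the block, with a minimum mean of 5 FPKM and without any one library (0.11, 0.139 and 0.0845 for control replicates 1, 2 and 3, and 0.0893, 0.157 and 0.116 for RCE replicates 1, 2 and 3). Dnajc8, which binds splicing factors and was the most abundant Dnajc gene, was at 64.5, 55.7 and 61.2 FPKM in control and at 66.8, 59.3 and 57.4 FPKM with RCE (+0.02, adjusted p = 0.916). Dnajc7, which binds HSP70 and HSP90, was at +0.18 (adjusted p = 0.137; paired 0.000456). Dnajc5, the cysteine string protein of secretory vesicles, was at -0.06 (adjusted p = 0.441), and Dnajc13 of endosomes at -0.06 (adjusted p = 0.478, and 0.0407 with GC correction). A further 8 Dnajc genes were higher in the paired fit, and neither without pairing nor with GC correction added to it: Dnajc1 (+0.09, paired 0.028), Dnajc3 (+0.11, paired 0.00834), Dnajc10 (+0.08, paired 0.0248), Dnajc11 (+0.10, paired 0.0145), Dnajc15 (+0.17, paired 0.0156), Dnajc18 (+0.12, paired 0.0076), Dnajc24 (+0.20, paired 0.00943) and Dnajc27 (+0.11, paired 0.0409). Without the pairing their limma adjusted p ran from 0.0762 to 0.608, and Dnajc10 was at -0.01 with GC correction. Dnajc4, Dnajc14, Dnajc16, Dnajc17, Dnajc19, Dnajc21, Dnajc25 and Dnajc30 passed in neither fit, with changes from -0.07 to 0.08.

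The 12 members below a mean of 1 FPKM were not tested. Dnajb7, Dnajb8, Dnajc5b and Hspb9 were listed at 0 in every library, where 3 fragments on the longest annotated transcript would be worth 0.037 to 0.0904 FPKM, a limit that covers counting error only. Dnajb13, Dnajc22, Dnajc5g, Dnajc6 and Hspb3 were at no more than 0.034 FPKM in any library. Dnajc12 and Hspa12b were close to the filter, at 0.672 to 1.055 and 0.869 to 1.14 FPKM, with overlapping groups. Hspa1l, the testis copy beside Hspa1a, was at 0.261, 0.237 and 0.278 FPKM in control and at 0.327, 0.363 and 0.324 FPKM with RCE, which is 29 to 35 and 37 to 53 fragments. Just above the filter lay Dnajb3, at a group mean of 1.06 and 1.03 FPKM.

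The members were also split by how they are controlled. The lists were taken from general knowledge, but with earlier results of these data known, and the counts depend on who was listed. Of 12 stress-inducible members 5 were lower (Hspa1a, Hspa1b, Dnajb1, Hspb1 and Hspa4l) and 0 higher (6 and 2 paired). Of 13 constitutive members 0 were lower and 1, Dnajc2, higher (3 and 5 paired). Dnaja4, Dnajc9, Dnajc28 and Hspa12a, called higher, and Hspb7, called lower, were on neither list. Dnaja4 has letters of the 2-unit heat shock element, and Dnajb6, on the constitutive list, those of the 3-unit form. Hspa1a and Hspa1b count separately although their transcripts are largely alike. The background of lower calls was 6.77% and of higher calls 17.6%, and with median-of-ratios scaling 9.95% and 8.4%. With GC correction added to the pairing, 8 of the 12 inducible and 7 of the 13 constitutive members were lower and 0 and 2 higher, beside 27.2% and 25.3% of all genes. The median change was -0.06 in the inducible list and -0.02 in the constitutive list, beside 0.08 over all genes tested. With median-of-ratios scaling the medians were -0.15 and -0.11, beside 0.00. The 7 inducible members that did not pass, Hsp90aa1, Hsph1, Hspb8, Dnaja1, Dnajb4, Hspd1 and Hspe1, lay between -0.09 and 0.12. Hspa1a and Hspa1b thus differ in size of change from the rest of their list, as the plot of level against change shows.

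**Figure D3:**
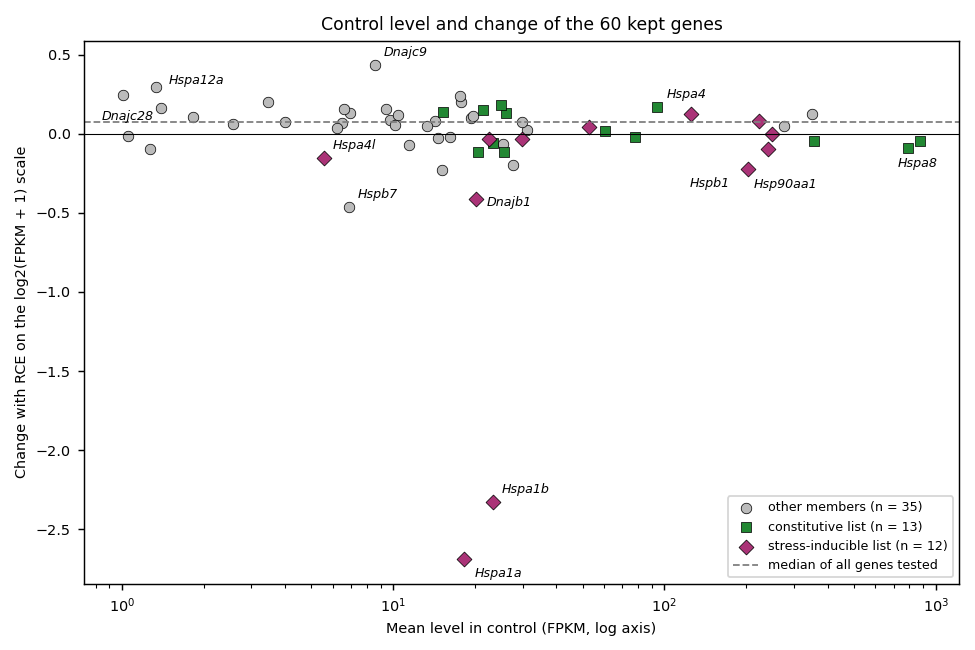
Change of the 60 tested members on the log2(FPKM + 1) scale (vertical axis) against the mean level in control in FPKM (horizontal log axis); diamonds are the 12 stress-inducible, squares the 13 constitutive and circles the 35 other members. Hspa1a and Hspa1b lie below -2, and members of both lists above 200 FPKM lie between -0.23 and 0.08.

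Ratios within a library do not depend on how libraries are scaled, so 7 inducible genes were set against constitutive relatives. The level of Hspa1a was 2.31, 2.07 and 1.88% of that of Hspa8 in control (replicates 1 to 3) against 0.265, 0.239 and 0.199% with RCE, a difference of -3.16 in the mean log2 ratio. Hspa1b was 3.03, 2.67 and 2.29% of Hspa8 in control and 0.488, 0.456 and 0.409% with RCE (-2.56). For both ratios all RCE libraries lay far below all control libraries. Hsph1 was 31.5, 31.6 and 31.9% of Hspa4 in control and 27.6, 26.9 and 27.9% with RCE (-0.21), with almost no spread between replicates. Hspa4l was 6.18, 5.94 and 5.55% of Hspa4 in control and 4.75, 4.68 and 4.41% with RCE (-0.35). Dnajb1 was 93.6, 103 and 96.9% of Dnajb6 in control and 74.3, 77.0 and 85.4% with RCE (-0.31). Hsph1 itself changed by -0.03 with overlapping groups, while Hspa4 changed by 0.17. In these 5 pairs the groups did not overlap. Among single genes 10.9% lay below and 31.2% above without overlap, and no such share was computed for ratios. The pairs are not independent, as Hspa8 and Hspa4 each serve in more than 1. The 2-sided exact permutation test gave p = 0.1 each, the smallest that 3 against 3 can give (0.14 adjusted over the 7 pairs). The paired exact test gave p = 0.25, the smallest for 3 pairs.

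For HSP90 and for Dnaja the balance between the forms overlapped between groups. Hsp90aa1 was 27.4, 33.3 and 31.3% of Hsp90ab1 in control and 26.8, 31.7 and 33.3% with RCE (difference 0.00 in the mean log2 ratio, 2-sided exact permutation p = 0.9). Dnaja1 was 24.6, 31.7 and 30.3% of Dnaja2 in control and 23.7, 30.7 and 31.4% with RCE (-0.02, exact permutation p = 0.9). Replicate 1 was the lowest in each group for both ratios.

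**Figure D4:**
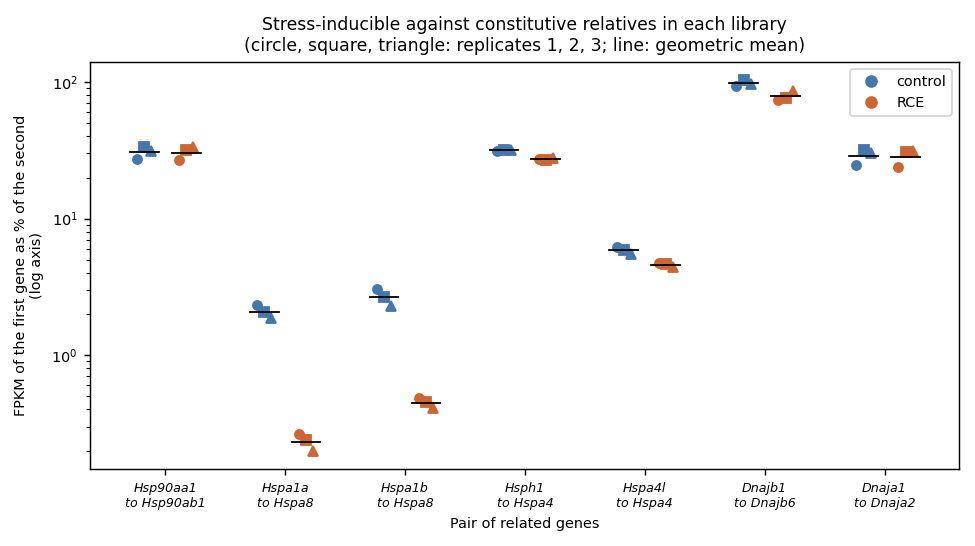
Level of 7 stress-inducible genes as a percentage of a constitutive relative (vertical log axis) for each pair (horizontal axis), with circles, squares and triangles for replicates 1, 2 and 3, blue for control, orange for RCE and lines for geometric means. Hspa1a drops from about 2% to 0.2% of Hspa8, whereas Hsp90aa1 stays between 26.8 and 33.3% of Hsp90ab1 in all libraries.

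The family totals differed between groups by far less than Hspa1a and Hspa1b did. Summed over all 72 members, the level was 4540, 4721 and 4629 FPKM in control and 4494, 4553 and 4615 FPKM with RCE, and the groups overlapped. The HSP70 sum was 1572, 1628 and 1594 FPKM in control and 1512, 1536 and 1548 FPKM with RCE, and the HSP90 sum was 1363, 1403 and 1385 against 1361, 1346 and 1349 FPKM. The Dnajb sum was 207 to 208 FPKM in control and 198 to 200 FPKM with RCE, while the Dnajc sum was 328 to 335 against 347 to 350 FPKM and the HSP110 sum 125 to 133 against 134 to 146 FPKM. In these 5 families the RCE libraries were all on 1 side of the controls, but the scaling of the deposited values enters every sum. The sums of the small HSPs, of the chaperonin and of Dnaja overlapped between groups.

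The ER and mitochondrial members are counted against 17.6% higher and 6.77% lower of all genes, 28.5% and 9.48% at unadjusted p, and 46.6% and 15.9% paired. The ER list held 8 members induced by the unfolded protein response or resident in the ER: Hspa5, Hsp90b1, Dnajb9, Dnajb11, Dnajc1, Dnajc3, Dnajc10 and Hspa13. Dnajb12 and Dnajb14, the ER membrane proteins given above, were not on it. Of the 8 listed, 0 passed limma in either direction (0 higher and 1 lower at unadjusted p under 0.05, 4 higher and 1 lower paired), and their median change was 0.06. Hspa5, or BiP, the HSP70 of the ER whose promoter carries the ER stress element shown above, was at 248, 292 and 292 FPKM in control and at 254, 301 and 304 FPKM with RCE. Replicate 1 was lowest in both groups, and the change of 0.05 was within the spread (limma adjusted p = 0.776, 95% interval -0.19 to 0.29). Dnajb9, a BiP co-chaperone, was at 29.2, 26.9 and 26.9 FPKM in control and at 26.5, 23.6 and 22.1 FPKM with RCE (-0.20, adjusted p = 0.11; paired 0.00112). Dnajc3, Dnajc10, Dnajb11 and Hspa13 were at +0.11, +0.08, +0.02 and -0.02. Of 9 mitochondrial members 1, Dnajc28, was higher and 0 lower (1 and 0 at unadjusted p under 0.05, 5 and 0 paired), with a median of 0.08. With GC correction added to the pairing, 0 of the ER list were higher and 2 lower. Of the mitochondrial list 1 was then higher and 1 lower, beside 25.3% higher and 27.2% lower of all genes.

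Promoter windows of 300 bases, 250 before to 50 after a start, were matched by symbol for 58 of the 72 members. Letters of the 3-unit heat shock element were in a window of 4 of these 58 (6.9%), Dnajb6, Hspd1, Hspe1 and Hsph1. By gene they were in 0.583% of 8569 tested genes with a window, and by window in 0.603% of all 32851. Without pairing 0 of these 4 members were called (Hspd1 higher and Dnajb6 lower in the paired fit). The 2-unit letters, which lie inside every 3-unit match, were in windows of 16 members (27.6%). They were in 13.7% of the tested genes with a window and in 15.1% of all windows. Of those 16, 3 were called lower (Hspa1a, Hspa1b and Hspb1), 1 higher (Dnaja4), 10 did not pass and 2 were not tested, beside 6.77% lower and 17.6% higher of all genes. In the paired fit 4 of the 16 were lower and 6 higher, beside 15.9% and 46.6%. The ER stress element was in windows of Hspa5, Hsp90b1 and Dnajc3 (5.17%), beside 0.175% of tested genes with a window and 0.119% of all windows. These 3 did not pass without the block. In the paired fit 2 of the 3, Hsp90b1 and Dnajc3, were higher and 0 lower, beside 46.6% and 15.9% of all genes. Neither kept that call with GC correction added. Hspa8, Hsp90aa1 and Hsp90ab1 were among the members without an entry.

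Genes that work with these families were read from further lists. The transcription factors Hsf1 and Hsf2 were at 24.1 ± 2.53 and 9.19 ± 0.587 FPKM in control and at 26.6 ± 3.03 and 10.3 ± 0.74 FPKM with RCE (SD, n = 3, limma adjusted p = 0.376 and 0.174, paired 0.00207 and 0.00675), and neither these nor Hsf4 and Hsbp1, which encodes an HSF-binding protein, passed without pairing (0 of 4, 0 at unadjusted p under 0.05, 2 higher paired). A further list held 34 genes, nearly all of them co-chaperones and chaperones of the cytosol, but also Tsc22d3, which is neither and was not called. Of the 34, 5 were higher and 1, Cryab, lower (17 and 2 paired), beside 17.6% and 6.77% of all genes (46.6% and 15.9% paired). Cryab, the small HSP alpha-B crystallin whose symbol lies outside the naming rule, was at 216, 197 and 204 FPKM in control and at 171, 161 and 152 FPKM with RCE. The groups did not overlap, and it fell by 0.35 (limma adjusted p = 0.0119), a call lost with quantile normalization and without RCE replicate 2 (adjusted p at most 0.0674). Fkbp4, the immunophilin FKBP52 of the HSP90 and steroid receptor complex, was at 40.8, 40.7 and 39.3 FPKM in control and 54.6, 52.3 and 54.1 FPKM with RCE, and rose by 0.41 (adjusted p = 0.00193). Cacybp was higher by 0.24 (adjusted p = 0.0106), a call lost with GC correction and without RCE replicate 2 (adjusted p at most 0.0596).

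Bag3, a co-chaperone of HSP70 that HSF1 also induces, was at 103, 71.0 and 69.5 FPKM in control (replicates 1 to 3) against 103, 71.1 and 66.8 FPKM with RCE. The groups overlapped almost fully (-0.02, limma adjusted p = 0.962), and replicate 1 stood above the others in both. Serpinh1, the collagen chaperone HSP47, was at 642 ± 41.8 and 696 ± 37.5 FPKM (+0.12, adjusted p = 0.29; paired 0.0107). The lists that follow are counted against 17.6% higher and 6.77% lower of all genes, 28.5% and 9.48% at unadjusted p, and 46.6% and 15.9% paired. Of 13 genes of the cytosolic chaperonin and prefoldin 0 passed (1 higher and 0 lower at unadjusted p under 0.05, 2 and 1 paired). Of 25 further ER stress genes 0 passed as well (4 higher and 0 lower at unadjusted p under 0.05, 8 and 3 paired), with a median of 0.02. Hyou1, the HSP110 relative of the ER, was at +0.13 (adjusted p = 0.112; paired 0.00542). Of 18 further mitochondrial chaperones and import genes 1 was higher and 0 were lower (3 and 0 at unadjusted p under 0.05, 9 and 0 paired). The gene called higher was Hscb, the J-domain protein of iron-sulfur cluster assembly (14.1 ± 0.299 and 16.4 ± 0.554 FPKM, +0.20, limma adjusted p = 0.0202). Its call was lost with median-of-ratios scaling (change 0.12), quantile normalization and GC correction, and without control replicates 2 or 3 or RCE replicates 2 or 3 (adjusted p at most 0.126). Trap1, the mitochondrial HSP90, was at +0.14 (adjusted p = 0.0622; paired 0.00289).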

How the data were processed

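Per the submitters' processing notes, the authors worked on mm10 with Cufflinks, Cuffdiff 2.2.1 and STAR 2.5.4, with no role given for each. Per the labels' protocols, TRIzol RNA was made into TruSeq Stranded mRNA libraries. The deposited values are FPKM, as the notes and the values show, while the header gives no unit; annotation, filters, further scaling and strand setting are not given in the sources used here. Count models need raw counts and were not applied.

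Depth was recovered from values of 0.02 to 0.5 FPKM of genes with 1 annotated transcript: at the depths given, 100% of 536 to 571 values per library came within 0.1 of a whole number of fragments, against a median of 15.5 to 16.6% at other depths and 45.8 to 95.5% at the best of them. GENCODE M21 (mm10) gave coordinates, transcripts and overlaps. The test was limma 3.58.1 under R 4.3.3, with a trend in the prior variance, applied to log2(FPKM + 1) of 10870 genes averaging 1 FPKM or more, 2-sided, with Benjamini-Hochberg adjustment over all of them and a threshold of 0.05. The scripts were tested on simulated data. Hspa4 and Hspa4l were counted as HSP110 with Hsph1.

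Labels number the replicates 1 to 3 in both groups. Same-numbered libraries deviated together (correlation across genes of their deviations 0.92, 0.62 and 0.68), so the numbers were taken as pairs. Control replicate 2 with RCE replicate 3 (0.77) and control 3 with RCE 2 (0.72) correlated more than 2 with 2 and 3 with 3, so the values set only number 1 apart. The fit with the replicate block is shown where it changes the call of a member or a printed count. Ratios were compared by exact permutation tests. Alternatives were other pseudocounts and filters, median-of-ratios and quantile scaling, GC correction, no trend, array weights, the block, a block of number 1 alone and leaving out libraries. Values by library are given for called members, ratio pairs, Hspa5, Hsp90b1, the most abundant gene of each family and named co-chaperones, with up to 3 called genes of each other list. The members and lists were chosen with earlier results of these data known.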

Additional observations from a re-analysis of the deposited data

How the results depend on the processing

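Hspa1a, Hspa1b, Dnajb1, Dnajc9 and Hspa12a kept their call and direction in every alternative that tested them, and these were 5 of the 11 called members. Members called higher and lower were 5 and 6, and 2 were higher when genes had to average 5 FPKM, 3 after median-of-ratios scaling, 3 after quantile normalization, 2 after GC correction, 24 and 12 with the replicate block, 23 and 14 with array weights, 21 and 11 without both libraries numbered 1, 7 and 22 with the replicate block and GC correction together, and 25 and 12 with a replicate block of number 1 against 2 and 3 (chosen after seeing the data). Without 1 library the counts ran from 2 to 6 higher and from 3 to 7 lower. All genes called higher and lower were 1910 and 736. They were 867 and 485 when genes had to average 5 FPKM, 5060 and 1730 with the replicate block, 5047 and 1731 with array weights, 891 and 1185 with GC correction, 4364 and 1480 without both libraries numbered 1, 913 higher with median-of-ratios scaling, 785 higher with quantile normalization, 2747 and 2954 with the block and GC correction, and 5187 and 1784 with the block of number 1 against 2 and 3. Without 1 library they ran from 685 to 2040 higher and from 394 to 734 lower. The median change of tested members was -0.0339 after median-of-ratios scaling, 0.002 after quantile normalization and -0.0422 after GC correction, in the paired fit too, and ran from 0.0037 to 0.0656 without 1 library. That of the inducible list was -0.15 with median-of-ratios scaling and -0.16 after GC correction (paired or not), and that of the constitutive list -0.11 and -0.11. Fewer genes or libraries account for part of the lower counts by construction, and otherwise the cause was not tested. The replicate block changed the call of 25 members, each given with its paired value. None of the 7 ratio differences moved beyond the replicate spread without any 1 library or without both libraries numbered 1. The replicate block, also run on them, cannot change a mean difference in this balanced design. Without 1 library the difference of Hsp90aa1 to Hsp90ab1 ran from -0.0828 to 0.0876. That of Dnaja1 to Dnaja2 ran from -0.1265 to 0.1132. Members under about 0.03 FPKM rest on a few fragments, which limits what depth can show.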

Other observations

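Libraries with replicate number 1 stood apart from the others for many chaperones in both groups. In 53 of 60 tested members replicate 1 deviated in the same direction from replicates 2 and 3 in both groups (88.3%, beside 87.2% of all genes tested). In 32 of 60 (53.3%, beside 41.7% of all genes) the size of the deviation, whether or not in the same direction, exceeded that of the change with RCE in both groups. It was largest for Hspb6, where replicate 1 lay 0.44 above the mean of the others in control and 0.56 above it with RCE on the log2(FPKM + 1) scale, and for Dnajc4 (0.37 and 0.35). Hspa5, Hspd1 and Dnaja1 deviated the other way. Nothing in the labels says what the numbers stand for.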
